A study of Mus musculus with 60 samples.

Results

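The 8 genes described here make or load major histocompatibility complex (MHC) class I molecules: the heavy chain genes H2-K1, H2-D1, H2-T22 and H2-T23, the light chain gene B2m, the peptide transporter genes Tap1 and Tap2, and the loading factor gene Tapbp. They were chosen by gene symbol, and each symbol matched 1 of the 48440 genes in the count tables. Class I molecules carry peptides from the inside of a cell to its surface, where T cells and natural killer cells read them. The transporter moves peptides into the endoplasmic reticulum, tapasin (the product of Tapbp) holds an empty heavy chain and its light chain beside the transporter, and interferon is known to raise most genes of this pathway together. Fibroblasts make class I molecules, as most nucleated cells do.

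RNA was sequenced from mouse cancer-associated fibroblasts (CAFs, the activated fibroblasts of tumours), which the labels call tCAFs without explaining the prefix. The CAFs were grown with 344SQ cells, with 393P cells, or alone, either as multicellular aggregates or in a Boyden chamber, in which a porous membrane lies between the cell types. 344SQ is known as a metastatic and 393P as a poorly metastatic mouse lung adenocarcinoma line, and each group rests on 1 such line. A further pair of aggregate groups held CAFs grown with 344SQ cells that carried a short hairpin RNA (shRNA) against Zeb1 (shZEB1) or a control hairpin (shCTL). The aggregates had 3 replicates per group and the Boyden chamber 5, each Boyden replicate being the sum of 3 technical libraries, for 60 libraries in all. CAFs were enriched by cell sorting before lysis, per the labels, and titles of the aggregate CAFs grown alone carry the name GFP (green fluorescent protein). The labels used here name no mouse strain, age, number of animals or other treatment. The labels call the replicates biological, and nothing says that they came from separate fibroblast isolates, so p-values measure only the spread between these samples.

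Library totals ran from 757717 to 1258751 counts in the aggregates, from 739530 to 2144803 in the shRNA aggregates and from 4182944 to 8542262 in the Boyden sums. The common biological coefficient of variation fitted between replicates was 16.2% in the aggregates, 61.7% in the shRNA aggregates and 8.58% in the Boyden chamber. Fibroblast markers were plain in every group: at least 9 of 10 were detected in each sample, and their summed level was at least 1711 CPM (counts relative to the library's total). Epcam and Ptprc, defining markers of carcinoma cells and leukocytes, had 0 to 4 counts per sample. Other markers of these lists were higher, Krt7 at up to 26.7 and Cdh1 at up to 17.1 CPM in the Boyden chamber and Krt8 at up to 40.7 CPM in the aggregates. The summed CPM of 10 carcinoma markers was 19.97 to 40.4 with 344SQ, 9.35 to 79.4 with 393P and 15.04 to 26.6 alone in the Boyden chamber, and 11.6 to 24.8, 17.2 to 86.7 and 5.07 to 10.6 for the same groups of aggregates. In the Boyden chamber the summed markers of leukocytes (10 genes, led by Csf1r and Lyz2) were 5.63 to 7.41 CPM with 344SQ, 6.31 to 8.13 CPM with 393P and 8.46 to 11.5 CPM alone, with Cd3e, Adgre1 and Tyrobp at 0 in every sum. Those of endothelium (6 genes, led by Kdr) were 6.84 to 10.8, 7.76 to 11.04 and 13.4 to 18.0 CPM in the same groups, with Emcn at 0, and those of fibroblasts 6731 to 7458, 7419 to 7789 and 8691 to 9145 CPM. Single fibroblast markers went both ways in these groups. Col3a1 stood at 485 to 645, 679 to 741 and 994 to 1196 CPM, and Pdgfra at 223 to 244, 207 to 230 and 123 to 138 CPM. The shRNA libraries stood apart, with summed carcinoma markers of 33.1, 987 and 537 CPM in replicates 1 to 3 labelled shZEB1 and 51.1, 38.2 and 1468 CPM in those labelled shCTL, led by Cdh1 at up to 578 CPM with shZEB1 and 726 CPM with shCTL. Their leukocyte markers summed to 9.21 to 92.0 CPM with shZEB1 and 17.2 to 49.4 CPM with shCTL, led by Lyz2, against 2.72 to 12.8 CPM over the other aggregates. Zeb1, the hairpin's target, stood at 152, 44.6 and 144 CPM in the libraries labelled shZEB1 and 61.0, 84.6 and 53.2 CPM in those labelled shCTL; the hairpin was in the cancer cells and the libraries came from sorted CAFs, so this level does not check the labels. In bulk samples such as these, fewer cells of a type and less RNA per cell cannot be told apart.

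Levels are given as CPM with TMM-scaled library sizes, and levels of different genes are compared as CPM per kilobase (kb) of exon. In Boyden chamber CAFs grown alone, B2m led with 361 ± 18.3 CPM per kb (SD, n = 5). H2-D1 followed at 28.5 ± 3.36, Tapbp at 25.6 ± 3.39, H2-K1 at 18.2 ± 2.20 and H2-T22 at 15.4 ± 1.496 CPM per kb. Far below them were H2-T23 with 2.96 ± 0.90, Tap1 with 1.06 ± 0.189 and Tap2 with 0.317 ± 0.0365 CPM per kb. In this order the neighbours H2-D1 and Tapbp, and H2-K1 and H2-T22, overlapped between replicates, while the other neighbours did not. With 344SQ cells H2-T22 stood at 33.0 ± 2.94 CPM per kb, above H2-D1 at 28.6 ± 3.78, although the replicates of these genes overlapped. With 393P cells the order was that of CAFs alone. Exon lengths were not corrected for sequence shared with other genes. Of stretches of 50 bases, 53.52% in H2-T22 and 12.77% in H2-D1 occurred in another gene, so the order of genes is uncertain. The plot of levels by replicate shows all 8 genes in all 8 groups.

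**Figure D1:**
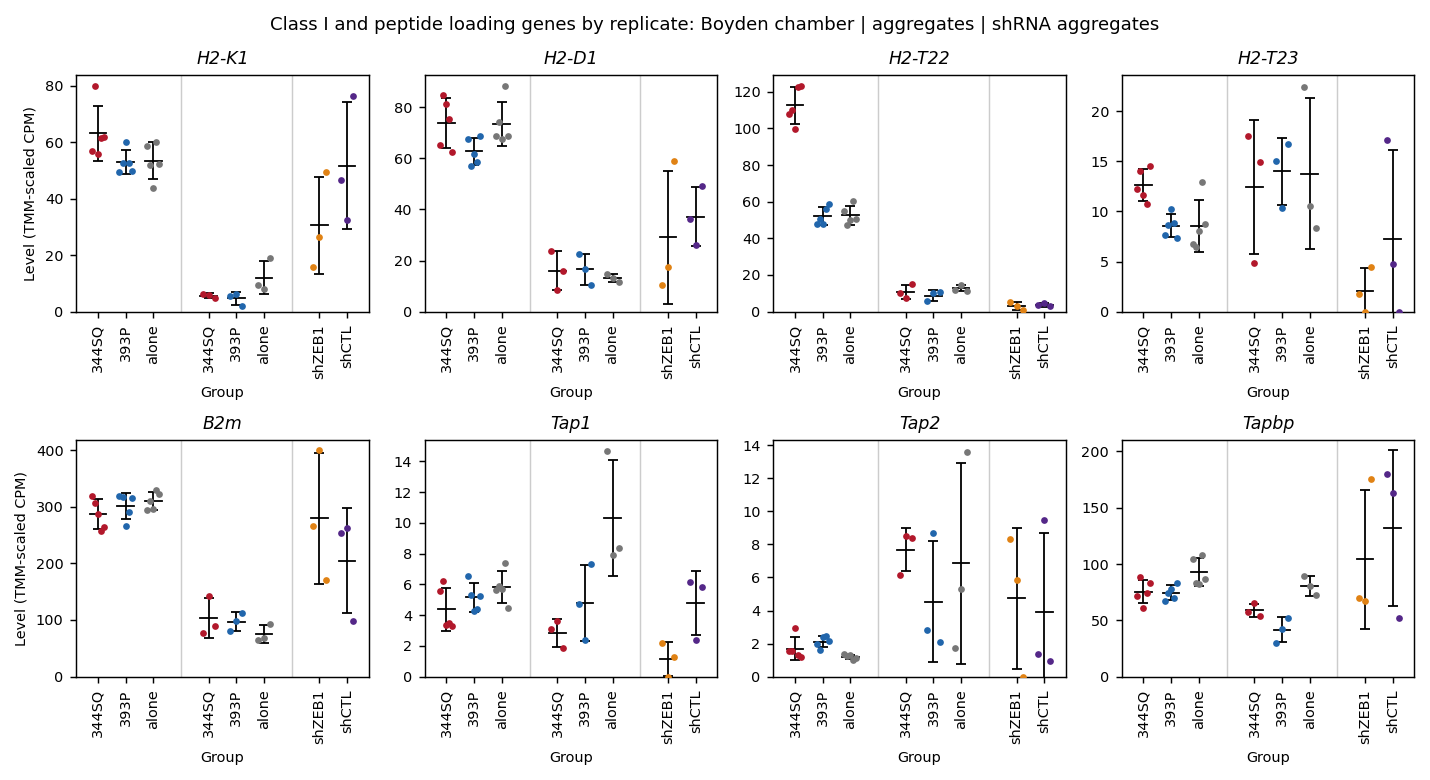
Each panel plots the level of 1 gene (y axis, TMM-scaled CPM) in every replicate (points) by group (x axis), with the mean and SD as bars; grey lines divide the Boyden chamber, the aggregates and the shRNA aggregates, which were scaled apart. H2-T22 in Boyden CAFs with 344SQ cells sits between 99.6 and 123 CPM, above every replicate of the other Boyden groups.

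The promoters of the heavy chain genes are shown because H2-T22 and H2-T23 passed the test with 344SQ cells in the Boyden chamber and H2-K1 and H2-D1 did not. They run from 250 bases before to 50 after an annotated start, in the gene's direction, and come from RefSeq on build GRCm38.p6; 7 of the 8 genes had an entry, and for H2-K1 1 of its 2 starts is printed. Capitals mark matches to 5 motifs, searched on both strands: the interferon response element in a short form, GAANNGAAA, and a long form, GAAA with any 2 bases before a second GAAA; the CCAAT box; the NF-kB consensus; and the H2TF1 palindrome of class I promoters, GGGG followed by ATT and CCCC, which overlaps the NF-kB consensus.
H2-T22, chr17:36042693-36042992, minus strand: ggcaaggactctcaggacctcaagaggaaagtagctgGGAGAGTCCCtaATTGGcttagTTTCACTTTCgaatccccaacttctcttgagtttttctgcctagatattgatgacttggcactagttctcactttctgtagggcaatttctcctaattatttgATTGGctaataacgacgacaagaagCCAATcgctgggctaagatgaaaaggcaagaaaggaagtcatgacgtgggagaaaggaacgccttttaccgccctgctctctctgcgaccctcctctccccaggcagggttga
H2-T23, chr17:36032652-36032951, minus strand: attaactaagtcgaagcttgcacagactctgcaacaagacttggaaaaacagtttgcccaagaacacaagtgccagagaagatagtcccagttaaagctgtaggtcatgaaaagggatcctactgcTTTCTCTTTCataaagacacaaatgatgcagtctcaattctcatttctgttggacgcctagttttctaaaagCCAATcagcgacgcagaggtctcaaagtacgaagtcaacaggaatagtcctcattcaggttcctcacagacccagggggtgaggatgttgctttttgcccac
H2-K1, chr17:34000284-34000583, minus strand: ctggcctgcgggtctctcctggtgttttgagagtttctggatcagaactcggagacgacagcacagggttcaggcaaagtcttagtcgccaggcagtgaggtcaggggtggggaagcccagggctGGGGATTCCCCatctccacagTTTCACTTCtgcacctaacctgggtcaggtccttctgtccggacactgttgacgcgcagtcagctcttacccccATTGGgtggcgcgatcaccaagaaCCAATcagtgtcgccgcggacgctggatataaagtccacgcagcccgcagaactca
H2-D1, chr17:35262844-35263143, plus strand: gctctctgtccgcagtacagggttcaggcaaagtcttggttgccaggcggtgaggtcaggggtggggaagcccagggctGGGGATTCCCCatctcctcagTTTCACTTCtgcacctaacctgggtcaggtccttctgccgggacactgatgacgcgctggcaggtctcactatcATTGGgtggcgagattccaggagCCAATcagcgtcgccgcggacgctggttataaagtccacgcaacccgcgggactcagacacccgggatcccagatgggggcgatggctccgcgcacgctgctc

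H2-K1 and H2-D1 each held the palindrome, followed by the short interferon element TTTCACTTC (GAANNGAAA on the opposite strand). H2-T22 and H2-T23 held no such palindrome in this window; both held the long form of the interferon element, as TTTCACTTTC in H2-T22 and TTTCTCTTTC in H2-T23. H2-T22 also held an NF-kB consensus match, and each of the 4 promoters held at least 1 CCAAT box. B2m held the long interferon element, an NF-kB consensus match and a CCAAT box, while Tap1 and Tapbp held only CCAAT boxes. Of 32851 mouse promoters of the same length, 0.03% held the palindrome, 7.52% the short and 3.44% the long interferon element, 8.46% the NF-kB consensus and 37.41% a CCAAT box. These are matches of letters and no measure of binding.

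**Figure D2:**
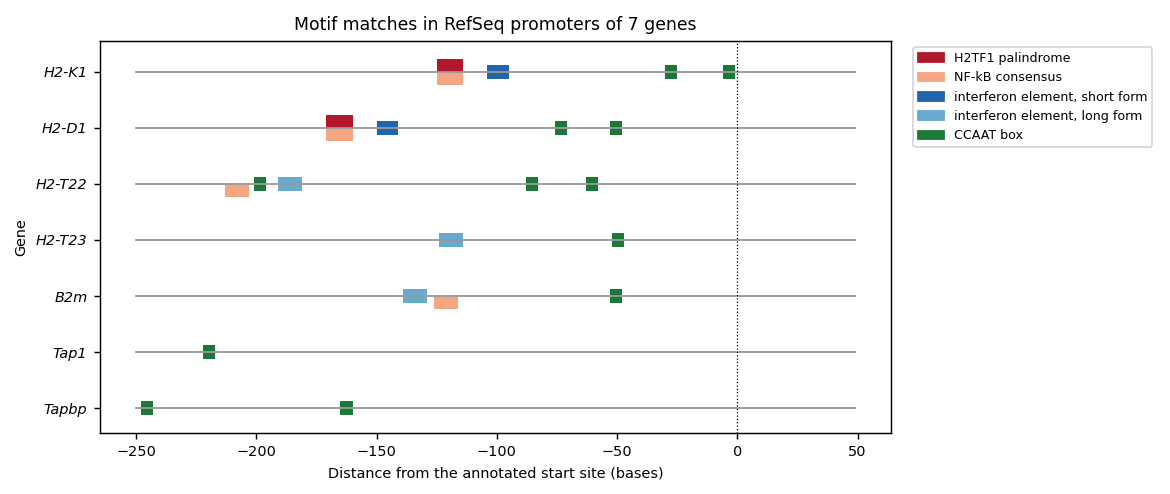
Positions of motif matches (coloured boxes) in the promoters of 7 genes (rows), as bases from the annotated start site (x axis, negative before the start). The palindrome appears in H2-K1 and H2-D1 only, and the long interferon element in H2-T22, H2-T23 and B2m.

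Across the membrane, CAFs with 344SQ cells had a higher level of 2 class I heavy chain genes that are not classical transplantation antigens, H2-T22 and H2-T23, and a lower level of Tapbp than CAFs alone, while H2-K1, H2-D1, B2m, Tap1 and Tap2 missed the threshold. By edgeR's quasi-likelihood test with Benjamini-Hochberg adjustment over all genes tested, 2 of the 8 genes were called higher and 1 lower at an adjusted p under 0.05. Over all 14040 genes tested in this comparison 14.9% were called, 7.43% higher and 7.44% lower. The median log2 change of the 8 genes was 0.13 against 0.0064 for all genes. Of the 3 genes whose promoters held the long interferon element, H2-T22 and H2-T23 were called higher and B2m was not called. The promoters were shown because of these calls, so this match is no test of the element. Groups that did not overlap between replicates were found for 1 of the 8 genes, H2-T22, and for 9.93% of all genes.

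H2-T22 (ENSMUSG00000056116, chromosome 17, 36037128 to 36042747, minus strand, build mm10) encodes a class I-like molecule known as a ligand of some gamma delta T cells. Its level was 108, 110.2, 99.6, 123 and 123 CPM with 344SQ cells, against 55.0, 47.1, 49.97, 60.2 and 50.7 CPM in CAFs alone. Every replicate with 344SQ cells was above every replicate alone. The log2 change was 1.10 ± 0.08 (SE; 95% interval 0.93 to 1.26), with an adjusted p of 1.46e-10, and it lay between 1.01 and 1.15 under all 18 alternatives run, leaving out each replicate in turn among them. Carcinoma markers summed to 19.97 to 40.4 CPM in the 344SQ group and 15.04 to 26.6 CPM alone, and Cdh1, an adhesion gene of carcinoma cells, stood at 4.51 to 17.1 CPM with 344SQ and 1.79 to 4.37 CPM alone. Krt7, Krt8, Krt18 and Krt19 of the same list overlapped between these groups. The part of these markers in the result was not tested.

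H2-T23 (ENSMUSG00000067212, chromosome 17, 36029773 to 36032855, minus strand) encodes Qa-1, which shows leader peptides of other class I chains to the inhibitory receptor CD94/NKG2A of natural killer cells. It stood at 12.2, 14.1, 11.7, 10.7 and 14.5 CPM with 344SQ cells, against 6.71, 6.44, 8.03, 12.9 and 8.73 CPM alone. Replicate 4 of the alone group was inside the range of the 344SQ group, so the groups overlapped. The log2 change was 0.55 ± 0.16, with an adjusted p of 0.0220. The call was lost at an adjusted p of 0.0506 to 0.0615 without replicate 1, 2 or 3 of the alone group or 344SQ replicate 5, and reached 0.190 with the first technical library of each replicate only.

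The classical heavy chain genes present peptides to CD8+ T cells. H2-K1 (ENSMUSG00000061232, chromosome 17, 33996017 to 34000347, minus strand) stood at 57.0, 79.8, 55.9, 61.4 and 61.7 CPM with 344SQ cells, against 58.7, 51.8, 43.9, 60.2 and 52.4 CPM alone. H2-D1 (ENSMUSG00000073411, chromosome 17, 35262730 to 35267499, plus strand) stood at 65.2, 84.9, 81.3, 75.4 and 62.6 CPM with 344SQ cells, against 68.6, 74.4, 67.5, 88.3 and 68.9 CPM alone. The groups overlapped for both genes. The log2 change was 0.25 ± 0.10 for H2-K1 (95% interval 0.05 to 0.44, adjusted p of 0.0830) and 0.01 ± 0.09 for H2-D1 (95% interval -0.17 to 0.19, adjusted p of 0.961). Without 344SQ replicate 2, the highest, the change of H2-K1 was 0.14. The upper ends of both intervals lie below the lower end of that of H2-T22, 0.93.

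B2m (ENSMUSG00000060802, chromosome 2, 122147686 to 122153083, plus strand), the light chain shared by class I molecules and the only gene of the 8 outside chromosome 17, had overlapping levels in all Boyden groups. It stood at 319, 307, 288, 257 and 264 CPM with 344SQ cells, against 294, 309, 296, 330.0 and 322 CPM alone. The groups overlapped, with a log2 change of -0.11 ± 0.07 (95% interval -0.25 to 0.03, adjusted p of 0.288).

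Tapbp (ENSMUSG00000024308, chromosome 17, 33915899 to 33929292, plus strand), which encodes tapasin, fell in the same comparison. Its level was 71.3, 88.5, 61.1, 74.3 and 82.8 CPM with 344SQ cells, against 104, 82.9, 82.7, 108 and 86.7 CPM alone. Only 344SQ replicates 2 and 5 reached the range of CAFs alone. The summed leukocyte, endothelial and fibroblast markers were also lower with 344SQ than in any sum alone, and their part in the result was not tested. The log2 change was -0.30 ± 0.09, with an adjusted p of 0.0331. The adjusted p was 0.0662 to 0.120 without replicate 1 or 4 of the alone group or without replicate 1, 3 or 4 of the 344SQ group. It was 0.159 with the first technical library only.

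The transporter genes had the lowest levels per kilobase of the 8. Tap1 (ENSMUSG00000037321, chromosome 17, 34187553 to 34197225, plus strand) stood at 5.55, 6.25, 3.33, 3.50 and 3.28 CPM with 344SQ cells, against 5.66, 5.89, 5.67, 7.39 and 4.49 CPM alone, with a log2 change of -0.38 ± 0.20 (95% interval -0.80 to 0.04, adjusted p of 0.227). Tap2 (ENSMUSG00000024339, chromosome 17, 34203527 to 34216321, plus strand) stood at 1.53, 1.56, 2.92, 1.31 and 1.17 CPM with 344SQ cells, against 1.34, 1.23, 1.30, 1.002 and 1.12 CPM alone, with a log2 change of 0.50 ± 0.29 (95% interval -0.09 to 1.10, adjusted p of 0.271), or 0.23 without 344SQ replicate 3. Both genes overlapped between the groups. Their Boyden sums held 14 to 59 counts of Tap1 and 5 to 16 of Tap2, so counting error widens their intervals.

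With 393P cells across the membrane, Tapbp was lower and Tap2 higher than in CAFs alone, and no heavy chain gene passed the threshold. Of the 8 genes, 1 was called higher and 1 lower, against 15.6% of 14040 genes called in this comparison (7.68% higher, 7.96% lower). Tapbp stood at 66.7, 74.0, 78.1, 70.1 and 83.4 CPM with 393P cells, with CAFs alone as given above. Replicate 5 of the 393P group reached the range of CAFs alone, and the log2 change was -0.32 ± 0.09 with an adjusted p of 0.0192. Without replicate 1 or 4 of the alone group or 393P replicate 1 or 4, the adjusted p was 0.0513 to 0.0821. With the first technical library only, it was 0.373. The summed leukocyte, endothelial and fibroblast markers were lower than alone in this group too, though Pdgfra was higher, and their part was not tested.

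Tap2 stood at 1.95, 1.60, 2.37, 2.43 and 2.17 CPM with 393P cells, above all replicates alone, and it was the 1 gene of the 8 that did not overlap, against 12.4% of all genes. The log2 change was 0.81 ± 0.26, with an adjusted p of 0.0375, from 10 to 16 counts per sum with 393P cells and 8 to 11 alone. The call was lost, at an adjusted p of 0.0505 to 0.0950, when any replicate except 393P replicate 2 was left out. It was also lost with no filter (0.136), and DESeq2 gave no adjusted p for this gene. H2-T22 stood at 48.0, 50.7, 47.7, 56.0 and 59.0 CPM with 393P cells, for a log2 change of -0.01 ± 0.08 (95% interval -0.18 to 0.16). H2-D1 stood at 67.4, 57.1, 61.6, 58.6 and 68.8 CPM, for a log2 change of -0.23 ± 0.09 (adjusted p of 0.0789); the adjusted p was 0.0399 with no filter, 0.0496 with the 393P and alone groups fitted by themselves and 0.0449 with the first technical library. The changes of H2-K1, H2-T23, B2m and Tap1 ran from -0.17 to -0.01 on the log2 scale.

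Set directly against 393P cells, 344SQ cells again gave a higher H2-T22. Of the 8 genes 1 was called higher and none lower, against 3.88% of 14040 genes called (2.52% higher, 1.36% lower). At an unadjusted p under 0.05, 4 of the 8 were higher and 0 lower, against 2256 of 14040 genes in either direction, and DESeq2 called 2 of the 8 higher and 0 lower. The log2 change of H2-T22 was 1.11 ± 0.08 (95% interval 0.94 to 1.27, adjusted p of 3.24e-10), and the groups did not overlap. H2-T23, at 12.2, 14.1, 11.7, 10.7 and 14.5 CPM with 344SQ cells and 7.68, 8.63, 10.3, 8.82 and 7.39 CPM with 393P cells, did not overlap either. Its log2 change was 0.57 ± 0.17, with an adjusted p of 0.0547 that passed the threshold with no filter (0.0197), with DESeq2 (0.0478) and with only these 2 groups fitted (0.0203). It also passed without 344SQ replicate 4 (0.0412) and without 393P replicate 3 (0.0435). Non-overlapping groups made up 2 of the 8 genes and 4.46% of all genes. H2-K1 differed by 0.26 ± 0.10 and H2-D1 by 0.24 ± 0.09 on the log2 scale (adjusted p of 0.157 and 0.167). The 3 Boyden comparisons share samples, so their changes are not independent.

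**Figure D3:**
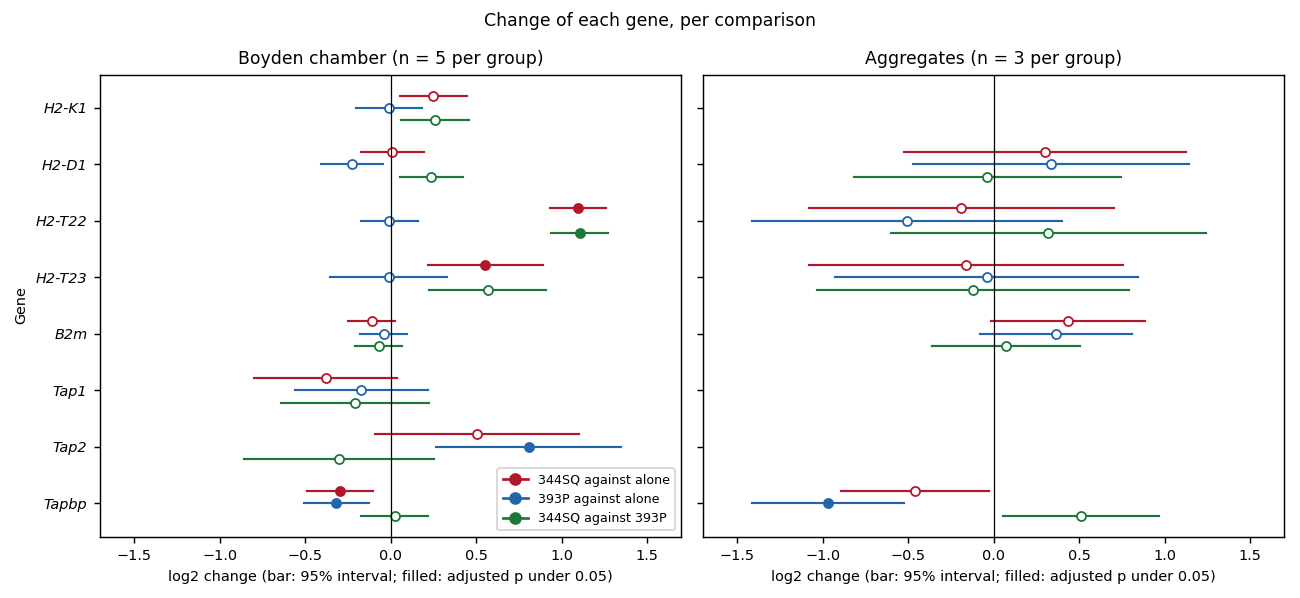
Log2 change of each gene (x axis, one row per gene) in the Boyden chamber and in the aggregates, as points with 95% intervals for 344SQ against alone, 393P against alone and 344SQ against 393P; filled points have an adjusted p under 0.05. H2-T22 lies near 1.10 in both Boyden comparisons that involve 344SQ, and genes with no point in the aggregates did not pass the count filter there.

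The higher H2-T22 was present in each technical library. Over the 15 technical libraries per group, H2-T22 ranged from 72.5 to 148 CPM (median 95.7) with 344SQ, from 26.9 to 66.4 CPM (52.6) with 393P and from 37.5 to 70.4 CPM (51.5) alone, here scaled by total counts. No library with 344SQ overlapped a library of the other groups. H2-K1 ranged from 39.4 to 82.3 CPM with 344SQ, 26.5 to 68.8 CPM with 393P and 32.7 to 79.1 CPM alone, so its libraries overlapped throughout. Libraries of 1 replicate share their cells and add no replicates.

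**Figure D4:**
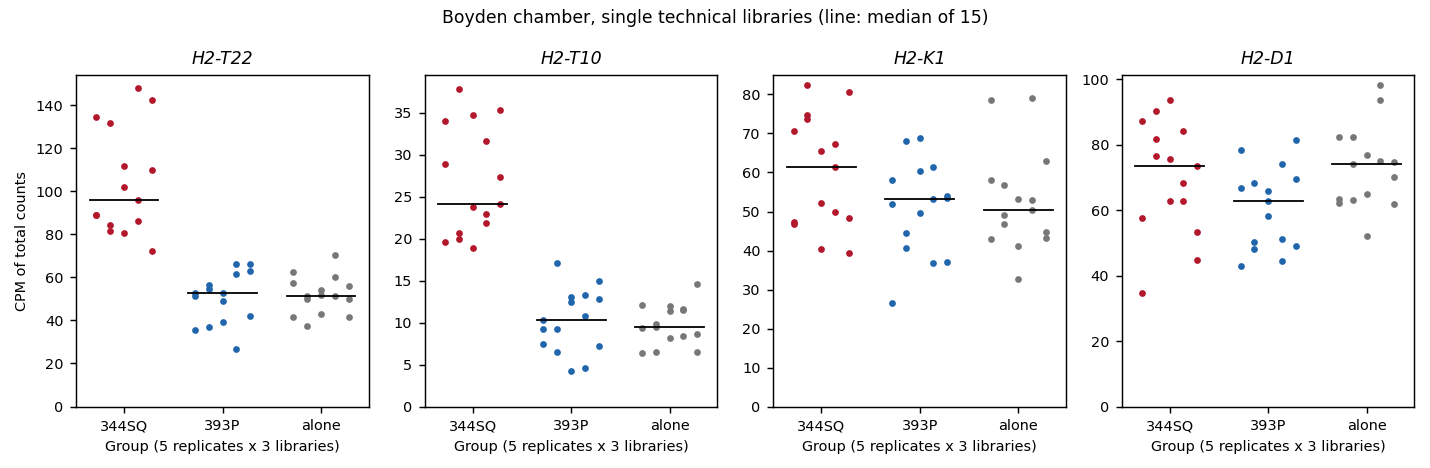
CPM of total counts (y axis) in each of the 15 technical Boyden libraries per group (x axis, points) for H2-T22, H2-T10, H2-K1 and H2-D1, with the median as a line. The 344SQ libraries of H2-T22, between 72.5 and 148 CPM, lie above all libraries of the other groups, and so do those of H2-T10.

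H2-T22 has a near-identical neighbour, H2-T10, which is also known as a gamma delta T cell ligand, and counts of the pair are uncertain. In GENCODE M21 transcripts, 53.52% of the 50-base words of H2-T22 occurred in another gene, 31.25% in H2-T10 and 26.55% in A930015D03Rik, a gene on the opposite strand whose exons overlap H2-T22. For 100-base words the share was 31.46%. The matching shares of 50-base words were 9.63% for H2-K1, 12.77% for H2-D1, 14.49% for H2-T23, 23.18% for Tapbp and 0% for B2m. H2-T10 stood at 29.3, 29.9, 25.6, 27.5 and 31.0 CPM with 344SQ cells, against 9.54, 8.77, 10.3, 10.1 and 10.7 CPM alone, and did not overlap. Its log2 change was 1.53 ± 0.10, with an adjusted p of 1.72e-11. A930015D03Rik had 0 counts in the Boyden 344SQ sums and 0 or 1 in those alone. In the aggregates it had 1 to 4 counts with 344SQ, 0 to 3 with 393P and 0 to 4 alone. H2-T10 had 1 to 2, 0 to 2 and 0 to 4 counts in these aggregate groups. Its Boyden sums held 123 to 172 with 344SQ, 67 to 83 with 393P and 64 to 87 alone. The part of shared reads in the difference of H2-T22 between formats was not tested. Whether reads were counted by strand is not given in the sources used here, and exons of Tap1, Tap2 and Tapbp also overlap other genes: Psmb9, Gm15821 and Gm20496, and Gm19412 and Zbtb22. In the Boyden sums Gm15821, which overlaps Tap2, had 0 to 3 counts with 344SQ, 3 to 7 with 393P and 1 to 2 alone. Zbtb22, which overlaps Tapbp on the same strand, had 28 to 52, 45 to 64 and 49 to 70 counts in these groups, and 10 to 17, 8 to 12 and 13 to 15 counts in the same groups of aggregates. The part of shared reads in the counts of Tap2 and Tapbp was not tested.

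The counts of 29 class I heavy chain genes of the H2 region were also summed. The sum holds H2-T22 itself, at a mean of 112.6 CPM with 344SQ and 52.6 CPM alone in the Boyden chamber, and H2-T10, so it is no separate result. Reads counted for no gene are missing from it, so it does not settle how reads of near-identical genes were counted. The sum was 309.5 ± 19.2 CPM with 344SQ cells, 202 ± 7.91 CPM with 393P cells and 211 ± 22.6 CPM alone in the Boyden chamber (SD, n = 5). The 344SQ sums, from 288 to 334 CPM, lay above those of CAFs alone, from 192 to 249.9 CPM, with a log2 ratio of 0.56, and above those with 393P cells, from 193 to 213 CPM, with a log2 ratio of 0.62. The 4 heavy chain genes chosen here made up 82.9% to 86.5% of the sum with 344SQ cells and 88.2% to 90.2% alone. In the aggregates the sums overlapped, at 50.3 ± 17.5 CPM with 344SQ, 47.0 ± 4.93 CPM with 393P and 60.0 ± 9.66 CPM alone (SD, n = 3).

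In multicellular aggregates, where CAFs and cancer cells were in contact, Tapbp fell with 393P cells and no heavy chain gene was called. H2-K1, Tap1 and Tap2 did not pass the count filter, so 5 of the 8 genes were tested. With 393P cells 1 of the 5 was called lower and none higher, against 10.7% of 7992 genes called (5.41% higher, 5.27% lower). Tapbp stood at 30.0, 42.0 and 52.2 CPM with 393P cells, against 89.6, 80.6 and 72.1 CPM alone. The groups did not overlap. The log2 change was -0.97 ± 0.22 (95% interval -1.42 to -0.53, adjusted p of 0.00223), and it stayed called under all 13 alternatives run, at an adjusted p of 0.00122 to 0.0269. Carcinoma markers in these groups summed to 17.2 to 86.7 CPM with 393P and 5.07 to 10.6 CPM alone, and fibroblast markers to 7245 to 8633 and 3964 to 6657 CPM. Pdgfra and Dcn of the fibroblast list went the other way, Pdgfra at 124 to 140 CPM with 393P and 365 to 702 CPM alone. The part of these markers in the result was not tested.

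With 344SQ cells in aggregates, edgeR's test called 0 of the 5 genes, against 5.84% of 7992 genes called (3.48% higher, 2.36% lower). DESeq2 called 0 of the 5. At an unadjusted p under 0.05, 1 of the 5 was lower, against 1273 of 7992 genes in either direction. That gene of the 5, Tapbp, stood at 57.6, 65.5 and 54.1 CPM with 344SQ cells, below all replicates alone, with a log2 change of -0.46 ± 0.21 (adjusted p of 0.269). B2m stood at 77.1, 143 and 88.6 CPM with 344SQ cells, against 64.6, 68.7 and 93.0 CPM alone, with a log2 change of 0.44 ± 0.22 (adjusted p of 0.331), or 0.14 without 344SQ replicate 2. H2-T22 stood at 10.3, 7.27 and 14.9 CPM with 344SQ cells, against 12.1, 14.5 and 11.5 CPM alone, and overlapped. Its log2 change was -0.19 ± 0.44 (95% interval -1.08 to 0.70), from 6 to 16 counts per library. H2-T23 and H2-D1 differed by -0.16 ± 0.45 and 0.30 ± 0.40 on the log2 scale.

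Between the lines in aggregates, 0 of the 5 genes were called by edgeR, against 4.15% of 7992 genes (2.21% higher, 1.94% lower). DESeq2 called 0 of the 5. At an unadjusted p under 0.05, 1 of the 5 was higher, against 1129 of 7992 genes in either direction. Tapbp was higher with 344SQ than with 393P in every replicate, with a log2 change of 0.51 ± 0.22 (adjusted p of 0.275). H2-K1 and Tap1, which were not tested, were lower in every aggregate replicate with cancer cells than in any alone. H2-K1 had 6.17, 6.06 and 4.66 CPM with 344SQ, 5.63, 6.34 and 2.09 CPM with 393P, and 9.48, 7.93 and 18.8 CPM alone. Tap1 had 3.08, 3.64 and 1.87 CPM with 344SQ, 4.69, 2.38 and 7.31 CPM with 393P, and 14.6, 7.93 and 8.36 CPM alone. These are 2 to 18 counts per library. Of the 8 genes, tested or not, 4 did not overlap between 393P and alone and 3 between 344SQ and alone, against 26% and 21.5% of all genes tested.

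Whether the effect of 344SQ cells differed between the formats was tested in a joint fit of both tables. The common biological coefficient of variation was 9.50% in this fit, against 16.2% in the aggregates fitted apart. The joint fit may therefore understate the spread of the aggregates and give adjusted p-values that are too small. H2-K1, Tap1 and Tap2 failed the count filter in the aggregates fitted apart, with 2 to 18 counts per library, and passed it only in the joint fit. Their differences between formats are given without a conclusion. The effect on H2-T22 was lower in the aggregates than in the Boyden chamber by 1.23 ± 0.37 on the log2 scale (difference -1.23, 95% interval -1.96 to -0.49, adjusted p of 0.0389), and it was the 1 gene of the 8 called, against 4.73% of 15193 genes (2.61% higher, 2.13% lower). The call was lost with no filter (adjusted p of 0.0731) and with the first technical library (0.0607). The error of this difference, 0.37, was below that of the aggregate effect of H2-T22 fitted apart, 0.44. H2-K1 differed by -1.33 ± 0.48, B2m by 0.58 ± 0.20 and Tap1 by -1.51 ± 0.60 (adjusted p of 0.109, 0.0930 and 0.165), of which DESeq2 called H2-K1 (0.0472) and B2m (0.0368). For 393P cells edgeR called 0 of the 8, against 8.98% of 15193 genes (5.32% higher, 3.66% lower). Of the 8, 3 had an unadjusted p under 0.05, against 3166 of 15193 genes. DESeq2 called 2 of the 8 lower, Tapbp at -0.63 and H2-K1 at -1.29. For the difference between the lines edgeR and DESeq2 called 0 of the 8, against 3.36% of 15193 genes by edgeR (1.4% higher, 1.96% lower). Of the 8, 1 had an unadjusted p under 0.05, against 2171 of 15193 genes. Format, table and sequencing depth go together in this series and cannot be told apart. In levels scaled apart per table, H2-K1 had 43.9 to 79.8 CPM over the Boyden sums and 2.09 to 18.8 CPM over the aggregates.

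The hairpin against Zeb1 in the 344SQ cells was compared with the control hairpin for the 4 of the 8 genes that passed the filter, H2-K1, H2-D1, B2m and Tapbp. By edgeR 0 of the 4 were called, and 0% of 7801 genes, with 0 of the 4 at an unadjusted p under 0.05 and 0 called by DESeq2. H2-K1 stood at 15.8, 26.4 and 49.3 CPM in the libraries labelled shZEB1, against 46.5, 32.3 and 76.4 CPM in those labelled shCTL, with a log2 change of -0.76 ± 0.66. B2m stood at 266, 401 and 171 CPM in the libraries labelled shZEB1, against 253, 263 and 97.7 CPM in those labelled shCTL, with a log2 change of 0.45 ± 0.49. The groups overlapped for both genes. Tapbp changed by -0.34 ± 0.56 and H2-D1 by -0.35 ± 0.74 on the log2 scale, and the widest 95% interval of the 4, that of H2-D1, ran from -1.94 to 1.24. Tap1, untested, was the 1 gene of the 8 that did not overlap, with 0 to 5 counts with shZEB1 and 3 to 9 with shCTL, against 11.7% of all genes. The carcinoma markers spanned 33.1 to 987 CPM in the libraries labelled shZEB1 and 38.2 to 1468 CPM in those labelled shCTL, and their part in these values was not tested.

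Other genes of the pathway were read from lists. Among 8 further class I and class I-like genes tested in the Boyden chamber, 2 rose with 344SQ cells over CAFs alone: H2-T10, given above, and H2-Bl, with 3.54 to 6.10 CPM with 344SQ and 0.945 to 1.79 CPM alone (log2 change 1.77 ± 0.27, adjusted p of 3.89e-05). Among 11 tested partner genes of peptide supply and loading, 2 fell and 0 rose: Psme3, a proteasome activator subunit, by 0.22 ± 0.06 and Erap1, the peptide trimming enzyme of the endoplasmic reticulum, by 0.33 ± 0.10 on the log2 scale. Of the immunoproteasome genes, Psmb8 had 3 to 9 counts per sum with 344SQ and 2 to 10 alone and Psmb9 0 to 3 and 0 to 4, and neither was tested. Psmb10 stood at 7.71 to 12.7 CPM with 344SQ and 10.7 to 15.7 CPM alone (log2 change -0.24 ± 0.13, adjusted p of 0.234). No partner gene rose at an unadjusted p under 0.05 or by DESeq2. The calls of H2-T10 and H2-Bl held under all alternatives run, while Psme3 lost its call without replicate 1 of the alone group or replicate 3 or 5 of the 344SQ group (adjusted p of 0.0593 to 0.0604) and Erap1 without replicate 3 or 4 of the alone group or replicate 1 or 4 of the 344SQ group (0.0688 to 0.100); both were lost with the first technical library (0.269 for Psme3 and 0.900 for Erap1).

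Of 25 tested regulators of class I genes, 5 rose with 344SQ cells and 1, Stat3, fell. The interferon receptor chain Ifnar2 stood at 65.8 to 69.5 CPM with 344SQ, against 31.7 to 43.2 CPM alone (log2 change 0.85 ± 0.08, adjusted p of 5.14e-09). The kinase gene Jak2 stood at 191 to 217 CPM with 344SQ, against 114 to 131 CPM alone (log2 change 0.77 ± 0.06, adjusted p of 4.80e-10). Neither gene overlapped between the groups. Nfkb1, an NF-kB subunit, rose by 0.49 ± 0.08 and the receptor chain Ifnar1 by 0.31 ± 0.07 on the log2 scale. Irf1, a transcription factor of interferon responses, rose by 0.39 ± 0.13 (adjusted p of 0.0460). Nlrc5, the class I transactivator, had 0 or 1 count per sum with 344SQ and 0 to 3 alone. The calls of Jak2, Ifnar2 and Ifnar1 held under all alternatives run, and that of Nfkb1 was lost only with the first technical library (adjusted p of 0.172). The call of Irf1 was lost when any replicate except 344SQ replicate 2 was left out (0.0595 to 0.153), with no filter (0.186), with DESeq2 (0.0940), with only the groups compared (0.0577) and with the first technical library (0.752). That of Stat3 was lost without any of these replicates except 344SQ replicate 2 and replicate 3 of the alone group (0.0589 to 0.138), with upper-quartile scaling (0.0582), with only the groups compared (0.0679) and with the first technical library (0.407).

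Of 13 tested interferon-induced genes, 4 fell with 344SQ cells and 0 rose: Ifit1 by 1.72 ± 0.45, Ifit3 by 0.86 ± 0.20, Ifi35 by 0.56 ± 0.17 and Irgm1 by 0.44 ± 0.14 on the log2 scale. Ifit1 stood at 1.34 to 3.72 CPM with 344SQ and 3.31 to 21.5 CPM alone, the highest value being replicate 4, in which H2-T23 was also the highest of its group. Over the alternatives the log2 change of Ifit1 ranged from -1.94 to -1.01 and its call held, with adjusted p up to 0.0436. Ifi35 lost its call without replicate 1 or 4 of the alone group or 344SQ replicate 1 or 3 (0.0542 to 0.101) and Irgm1 without replicate 4 of the alone group or 344SQ replicate 1, 3 or 4 (0.0704 to 0.134). Without replicate 4 of the alone group the change of Irgm1 was -0.22. With only the groups compared the adjusted p was 0.0563 for Ifi35 and 0.0727 for Irgm1, and the calls of Ifit3, Ifi35 and Irgm1 were lost with the first technical library. Of the 13, 1 was higher at an unadjusted p under 0.05 and 0 by DESeq2. Of 2 tested class II genes edgeR and DESeq2 called 0, with 0 at an unadjusted p under 0.05, and of 8 tested ligands of lymphocyte receptors 1 fell, Lgals9, by 0.36 ± 0.10. In this comparison the median log2 change was -0.11 for the partner genes, 0.18 for the further class I genes, 0.02 for the regulators, -0.34 for the interferon-induced genes and 0.0064 for all genes. The summed leukocyte, endothelial and fibroblast markers were lower with 344SQ cells as given above, though Pdgfra was higher, and their part in these changes was not tested. The numbers of called genes in these lists stand beside 14.9% of all genes called, and those at an unadjusted p under 0.05 beside 3948 of 14040 genes in either direction.

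With 393P cells in the Boyden chamber, 0 of the 11 partner genes and 0 of the 8 further class I genes were called by edgeR or DESeq2, where 2 and 1 had an unadjusted p under 0.05. Of the 25 regulators 2 rose, Jak2 by 0.48 ± 0.06 and Atf1 by 0.27 ± 0.09, and Ifngr2 fell by 0.22 ± 0.07. Of the 13 interferon-induced genes 2 fell, Ifit1 by 1.59 ± 0.41 and Ifi35 by 0.47 ± 0.16. Of the 8 ligands of lymphocyte receptors Raet1e rose by 0.35 ± 0.09 while Lgals9 fell by 0.50 ± 0.10 and Pvr by 0.35 ± 0.09. These numbers stand beside 15.6% of all genes called in this comparison, and those between the lines beside 3.88%. At an unadjusted p under 0.05 there were 4073 of 14040 genes with 393P against alone and 2256 between the lines, in either direction. Between the lines, 344SQ cells gave higher H2-T10 (1.41 ± 0.10), H2-Bl (1.07 ± 0.26) and H2-T24 (0.95 ± 0.27, adjusted p of 0.0497) and 5 higher regulators, Ifnar2 by 0.90 ± 0.08 and Nfkb1 by 0.61 ± 0.08 among them, with 0 called partner or interferon-induced genes by edgeR or DESeq2 (1 and 2 at an unadjusted p under 0.05). Nfkb1 lost its call with the first technical library (adjusted p of 0.141), H2-Bl without 344SQ replicate 5 (0.0646), and H2-T24 kept its call only without 344SQ replicate 4 or 393P replicate 1 among the replicates left out (up to 0.151 otherwise) and lost it with upper-quartile scaling (0.0516). The call of Ifit1 with 393P cells was lost without replicate 4 of the alone group (0.0626), where its change was -0.87. Atf1 lost its call without any replicate except replicate 2 of the alone group (up to 0.125), with no filter (0.128), with DESeq2 (0.0637) and with the first technical library (0.153). Ifi35 lost it without any replicate except replicates 2 and 3 of the alone group (up to 0.193, where without replicate 4 of the alone group its change was -0.31), with upper-quartile scaling (0.0507), no filter (0.0529), DESeq2 (0.0610) and the first technical library (0.128). Ifngr2 lost it without replicate 5 of the alone group or 393P replicate 2 or 3 (0.0588 to 0.0690), with no filter (0.0739) and with the first technical library (0.936). Irf1 changed by 0.22 ± 0.13 between the lines, which missed the threshold.

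In the aggregates the lists held fewer tested genes and few calls. With 393P cells 1 of 20 regulators fell, Ifnar2, to 6.57, 7.14 and 9.40 CPM with 393P, against 22.4, 19.8 and 19.9 CPM alone (log2 change -1.43 ± 0.37, adjusted p of 0.00928, 0.0788 by DESeq2). The ligand gene Clec2d, 1 of 5 tested ligands of lymphocyte receptors, fell by 1.11 ± 0.36, a call lost by DESeq2 (0.217), with no filter (0.0534) and without 393P replicate 2 or 3 or replicate 1 or 3 of the alone group (0.0601 to 0.209). Of all genes 10.7% were called in this comparison. With 344SQ cells edgeR and DESeq2 called 0 genes of any list, while 1 regulator was higher and 1 lower at an unadjusted p under 0.05, against 1273 of 7992 genes in either direction. In the joint edgeR fit the effect of 344SQ cells was lower in the aggregates for Ifnar2 (-1.16 ± 0.27, adjusted p of 0.00440). The same held for Irf1 (-1.97 ± 0.48, adjusted p of 0.00770). The error for Irf1 was below that of its aggregate effect fitted apart, 0.59, so this fit may understate the spread of the aggregates. The call of Irf1 was lost with the first technical library (0.138). The effect of 393P cells differed between the formats in the joint fit for Ifnar2 too (-1.34, adjusted p of 0.00235), and for Calr (0.59), Socs1 (3.00), Ifngr2 (0.83) and Atf1 (-1.05). Ifngr2 lost its call with no filter (0.0504) and the first technical library (0.220), and Atf1 with no filter (0.0682). Of all genes 4.73% were called for the 344SQ effect and 8.98% for the 393P effect. Irf1 in aggregates stood at 7.20, 1.21 and 2.80 CPM with 344SQ and 12.1, 13.2 and 10.5 CPM alone, a change of -1.60 ± 0.59 that missed the threshold (adjusted p of 0.117). In the shRNA aggregates edgeR called 0 genes of the lists, with 1 inhibitory ligand higher and 1 partner gene lower at an unadjusted p under 0.05, and DESeq2 called 1 inhibitory ligand higher.

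The genes of most similar pattern were sought over the 4 effects of co-culture against CAFs alone, as the smallest root mean square difference from the median log2 change of the 5 genes tested in both tables. That median was near 0 in each effect, between -0.16 and 0.01, so the nearest of 7822 genes were other genes of small change: Chd1, Gsr, Gnb1, Rnf216, Dap3 and Xpo5, at differences of 0.0156 to 0.0261 on the log2 scale.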

How the data were processed

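RNA-seq of sorted mouse CAFs was analysed from the raw counts per gene that the authors deposited. Reads were aligned with STAR to mm10 and counted with HTSeq, per the submitters' processing notes; tool versions, annotation release and strand setting are not named there. Each count table held 48440 genes, of which 48058 matched GENCODE M21 by identifier, which gave coordinates and exon lengths. Boyden counts were added up over the 3 technical libraries behind a replicate. Samples were grouped by their labels. Each table was fitted apart with edgeR 4.0.16 (limma 3.58.1, R 4.3.3) after its default count filter and TMM scaling, with group means and a quasi-likelihood test. The p-values were adjusted by Benjamini and Hochberg's method over all genes tested and called under 0.05. Effects in the 2 formats were compared in a joint fit of the aggregate and Boyden tables. Errors of log2 changes are standard errors, and those of levels are SDs between replicates. Tables and figures used Python 3.11.15, pandas 2.3.3 and matplotlib 3.10.9, and the fit was tested on simulated data. The 8 genes and the lists were chosen with earlier results of these data known; in a list the called genes of lowest p were named, up to 4, or the 2 most abundant where none was called, with Irf1, Nlrc5 and the immunoproteasome genes among those added, and 1 gene named by this rule is not reported here. Alternatives were RLE and upper-quartile scaling, no count filter, removal of 394 rRNA-like and mitochondrial genes, DESeq2 1.42.0, fits of only the groups compared, a replicate block, the first technical library alone, and each replicate left out.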

Additional observations from a re-analysis of the deposited data

Results flagged for a closer look

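H2-T22 was called for a difference in the effect of 344SQ cells between the 2 formats. The difference, aggregates minus Boyden chamber, was -1.23 on the log2 scale by an interaction term of the joint edgeR fit (adjusted p of 0.0389). The call was lost with no filter (0.0731) and with the first technical library (0.0607). The joint fit may also understate the spread of the aggregates. The change against CAFs alone was -0.19 ± 0.44 in the aggregates, from 6 to 16 counts per library, and 1.10 ± 0.08 in the Boyden chamber, from 344 to 635 counts per sum. Format, table and depth cannot be told apart.

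Single replicates stood far from the others of their group in 2 of 24 groups of 5 replicates, by Dixon's test, where chance gives about 1 in 20. H2-K1 stood at 79.8 CPM in 344SQ replicate 2 of the Boyden chamber, with the other replicates between 55.9 and 61.7 CPM. Tap2 stood at 2.92 CPM in 344SQ replicate 3 of the Boyden chamber, from 14 counts, with the other replicates between 1.17 and 1.56 CPM. By edgeR neither gene was called in a comparison with that group, while DESeq2 called H2-K1 for the 344SQ effect, aggregates minus Boyden chamber (-1.34, adjusted p of 0.0472). Neither gene passed the count filter in the aggregates fitted apart.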

How the results depend on the processing

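The higher H2-T22 with 344SQ cells in the Boyden chamber and the lower Tapbp with 393P cells in aggregates held under all alternatives run, and the other calls among the 8 genes did not. For 344SQ against alone in the Boyden chamber, 2 genes were higher and 1 lower; the first technical library gave 1 higher, and 0 were lower with it, with only the groups compared and with the replicate block. For 393P against alone, where 1 was higher and 1 lower, 0 were higher with no filter, DESeq2, the replicate block and the first technical library, and 2 lower with no filter and only the groups compared. For 344SQ against 393P, where 1 was higher, 2 were higher with no filter, DESeq2 and only the groups compared. For the effect of 393P cells, aggregates minus Boyden, DESeq2 gave 2 lower, against 0. For that of 344SQ cells, with 0 higher and 1 lower, DESeq2 gave 1 higher and 2 lower, and no filter and the first technical library gave 0 lower. Leaving out replicates gave 1 to 2 higher and 0 to 1 lower for 344SQ against alone, 0 to 1 in either direction for 393P against alone, and 1 to 2 higher for 344SQ against 393P.

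Signs of log2 changes that missed the threshold turned as follows. Against alone in aggregates with 393P, H2-T23 was 0.0085 with DESeq2 and 0.059 with the block. In the Boyden chamber H2-D1 with 344SQ was -0.020 with no filter and -0.22 with the first technical library. With 393P there, H2-T22 was 0.0030 and H2-K1 0.0016 under upper-quartile scaling, B2m was 0.016 with the first technical library, and H2-T23 was 0.0045 with the block and 0.19 with the first technical library. Tapbp between the lines was -0.0036 with no filter and -0.23 with the first technical library. For the 393P effect between formats, H2-T23 was -0.032 with RLE, -0.040 with upper-quartile scaling, -0.044 without rRNA-like and mitochondrial genes, -0.025 with DESeq2 and -0.18 with the first technical library. With that library Tapbp was 0.11 for the 344SQ effect and H2-K1 0.016 for the line difference between formats. With replicates left out, the ranges that crossed 0 in aggregates were -0.32 to 0.54 for H2-T23 with 393P, -0.51 to 0.015 for H2-T22, -0.46 to 0.42 for H2-T23 and -0.074 to 0.58 for H2-D1 with 344SQ; -0.23 to 0.24 for B2m, -0.42 to 0.22 for H2-T23 and -0.42 to 0.23 for H2-D1 between the lines; and -1.41 to 0.060 for H2-D1 with shZEB1. In the Boyden chamber they were -0.049 to 0.084 for H2-D1 with 344SQ, -0.056 to 0.052 for H2-T22, -0.081 to 0.044 for H2-K1 and -0.098 to 0.19 for H2-T23 with 393P, and -0.045 to 0.085 for Tapbp between the lines. The cause was not tested.

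Over all genes, the first technical library called 500 with 344SQ against alone (2087 with the sums), 609 with 393P against alone (2195) and 73 with 344SQ against 393P (545) in the Boyden chamber, and 364, 818 and 209 for the differences between formats in the 344SQ effect, the 393P effect and the lines (719, 1365 and 511). For shZEB1 against shCTL, 90 were called with no filter, 26 with DESeq2 and 1 with the replicate block, against 0, and 284 with 344SQ against alone in aggregates without replicate 3 alone, against 467. Replicate numbers showed no pairing of the samples. Deviations of same-numbered samples correlated at -0.03 to 0.07 in aggregates, -0.30 to 0.26 in the Boyden chamber and -0.03 to 0.13 in the shRNA aggregates. Those of differently numbered samples correlated at -0.08 to 0.08, -0.37 to 0.41 and -0.15 to 0.08. The cause of the wider Boyden ranges was not tested. With the replicate block the adjusted p missed the threshold for Tapbp (0.0556), Erap1 (0.0551), Irf1 (0.0686) and Irgm1 (0.0515) with 344SQ against alone in the Boyden chamber, for Tap2 (0.0529) and Atf1 (0.0518) with 393P against alone and for H2-T24 (0.116) between the lines there. With replicates left out, changes with shZEB1 were 0.11 to 0.71 for B2m, -1.29 to -0.36 for H2-K1 and -0.93 to -0.028 for Tapbp. H2-K1, Tap1 and Tap2 did not pass the count filter in the aggregates and were not tested there. Replicates were not left out of the joint fit.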
